A study of Danio rerio with 3 samples.

Results

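The genes described here are the chemokines, the interleukins and their receptors of the zebrafish, as read in mural lymphatic endothelial cells (muLECs) of the adult brain. They were chosen by name: every gene ID whose symbol began, ignoring case, with ccl, ccr or cxcl and a digit, with cxcr or ackr, or with il and a digit, except the 6 copies of CXCL12, CXCR4 and ACKR3. This gave 128 of the 32105 gene IDs in the count table. They comprised 33 CC chemokine ligands, 15 CXC chemokine ligands, 22 chemokine receptors, 27 interleukin ligands, 27 interleukin receptors or receptor subunits, and 4 genes that share the name but are neither. The series holds 1 group of 3 libraries, each made from cells of 6 adult wildtype brains, dissociated with Liberase and sorted on a lyve1 DsRed reporter, after which the RNA was amplified. All libraries carry the reporter, no other cell population was sequenced alongside, and no treatment, age or sex was given, so levels are described within the sorted cells and no groups were compared.

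Chemokines are small secreted proteins that guide migrating cells through G protein-coupled receptors; CC and CXC chemokines are told apart by the spacing of their first cysteines, and atypical receptors bind chemokines without classical signalling. Interleukins act through receptors of several chains, many of which are shared between ligands and signal through Jak kinases and Stat factors. Lymphatic endothelium is known in mammals both as a source of chemokines that draw leukocytes into the vessels and as a place where chemokines are taken up. In the zebrafish many of these genes occur as several copies side by side, so reads of near-identical copies may have been split or shared by the counting, and values of single copies in such groups are uncertain.

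The libraries held 36044297, 35168650 and 34307745 reads in genes for replicates 1, 2 and 3, and 7472, 6117 and 9739 gene IDs reached 10 reads in them. The sorted cells carried the lymphatic endothelial genes: of 13 listed markers found in the file, 12 reached 10 reads in at least 2 libraries, with MRC1 at 4289 CPM ± 891, stab2 at 615 CPM ± 51.0 and lyve1b, the gene whose reporter was sorted, at 605 CPM ± 73.2 (CPM, counts per 1000000 reads, SD, n = 3). The lymphatic transcription factor gene PROX1 had 614, 1213 and 1 reads, and cdh5, a cadherin gene of vessels, 0, 3 and 0. Of 20 macrophage and microglia markers outside the genes described here, 7, 10 and 14 reached 10 reads in replicates 1, 2 and 3, and their summed level was 1426, 1680 and 3755 CPM. Among the highest were apoeb at 1360 CPM ± 882 and cd74a at 295.5 CPM ± 231. Among them c1qa had 0, 0 and 480 reads and ptprc, the leukocyte antigen CD45, had 8, 1 and 237, while LCP1, P2RY12 and spi1a had 0 reads in every library. Of 14 lymphocyte markers outside the genes described here, 1, 3 and 8 reached 10 reads, with 0, 1664 and 156 reads of ighm and summed levels of 13.9, 96.5 and 25.2 CPM. The threshold of 10 reads in 2 libraries was also met by 8 of 10 general endothelial markers, 3 of 7 of neutrophils, 0 of 5 of thrombocytes, 0 of 5 of erythrocytes, 9 of 15 of neurons, 2 of 5 of radial glia, 5 of 10 of oligodendrocytes, 2 of 9 of pericytes and smooth muscle, 9 of 13 of fibroblasts and meninges and 3 of 10 of keratinocytes. Oligodendrocyte markers summed to 697.5, 2392 and 791.8 CPM, with the myelin gene mbpa at 1122 CPM ± 856, and those of pericytes and smooth muscle to 164, 694 and 96.3 CPM, with 5590, 18235 and 765 reads of RGS5. Both sums were highest in replicate 2. RGS5 alone gave 148, 651.4 and 18.6 CPM of the pericyte and smooth muscle sum. Other markers of that list went otherwise: rgs5b had 591, 1195 and 3185 reads, highest in replicate 3. PDGFRB had 1, 0 and 0 reads, NOTCH3 had 1, 2 and 0, and acta2 had 4, 2 and 5. CSPG4 and KCNE4 had 0 reads in every library. In bulk RNA, few cells of a type and little RNA per cell cannot be told apart.

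Most chemokine and interleukin genes were not read in the sorted cells, and 6 picked below for high reads held most of the family's reads. Of the 128 genes, 66 had 0 reads in all 3 libraries, or 51.6%, against 42.5% of all gene IDs and 36.3% of gene IDs with a symbol. A further 16 had some reads but never 10 in a library. The threshold used for testing, 10 reads in at least 2 libraries, was met by 22 genes, or 17.2%, against 22.1% of all gene IDs and 25.8% of gene IDs with a symbol. In all 3 libraries 10 reads were reached by 10 genes, or 7.81%, against 12.8% of all gene IDs. The floor of 3 reads, below which a gene is taken as not detectable at this depth, came to 0.0794, 0.107 and 0.0729 CPM in replicates 1, 2 and 3.

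An edgeR quasi-likelihood test over all 7111 genes with 10 reads in at least 2 libraries asked which stood above or below the median tested gene in reads, at a Benjamini-Hochberg adjusted p under 0.05. Of the 22 genes tested, 6 stood above it: the receptor genes il13ra1 and il4r.1, the chemokine genes ccl25b, cxcl18b and CXCL14, and the interleukin gene il15. That is 27.3% of those tested, beside 23.4% of all tested genes, so as a family they were called about as often as any detected gene. Their median log2 ratio to the median gene was 0.24, against 0.22 over all tested genes. Below the median gene stood 0 of the 22 by edgeR (1 at an unadjusted p under 0.05), beside 1.24% of all tested genes. DESeq2 called 0 of all 7111 tested genes below it, so its 0 of the 22 tells nothing about these genes. Counts were not divided by gene length, so a ratio to the median gene is one of reads and covers length as well as abundance. The 6 genes held 89.7%, 78.5% and 64.3% of all chemokine and interleukin reads in replicates 1, 2 and 3. They were picked for high reads in these same libraries, so a large share follows from the choice.

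**Figure D1:**
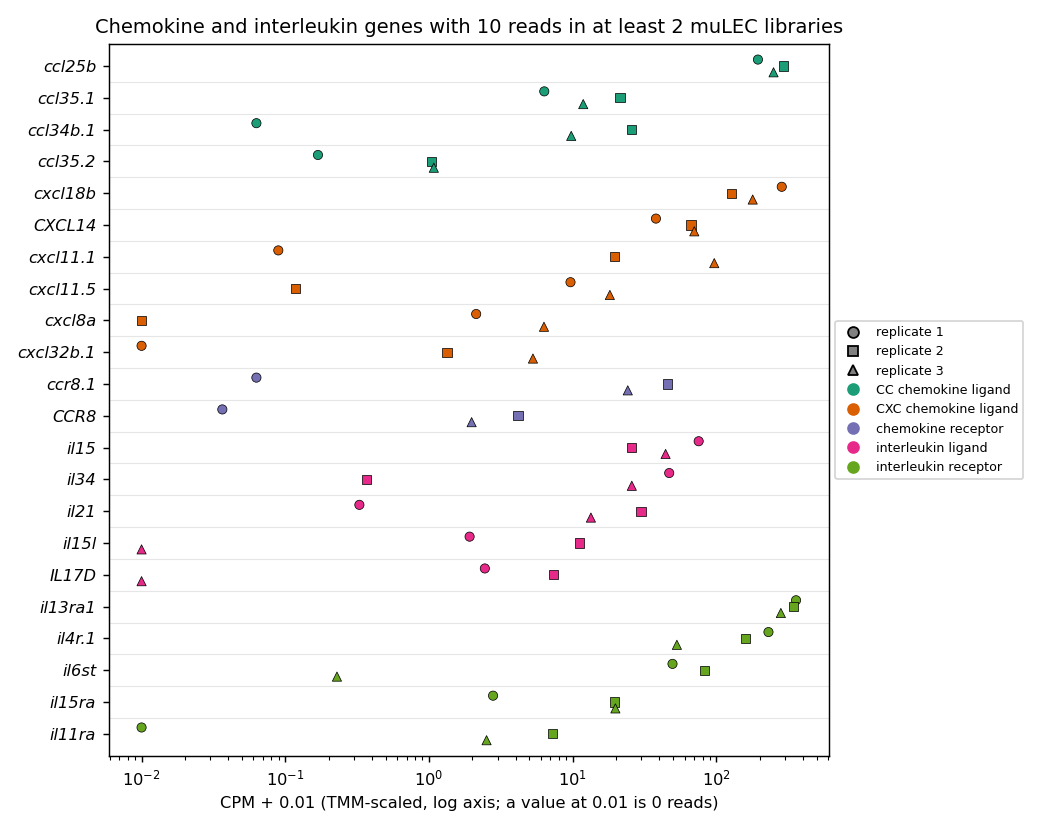
Level of the 22 genes with 10 reads in at least 2 libraries, one row per gene and one symbol per muLEC replicate, coloured by role, on a log axis of CPM + 0.01. The symbols of il13ra1 and ccl25b lie close together, whereas those of cxcl11.1, il34, il6st and ccr8.1 include a library at or near the floor.

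**Figure D2:**
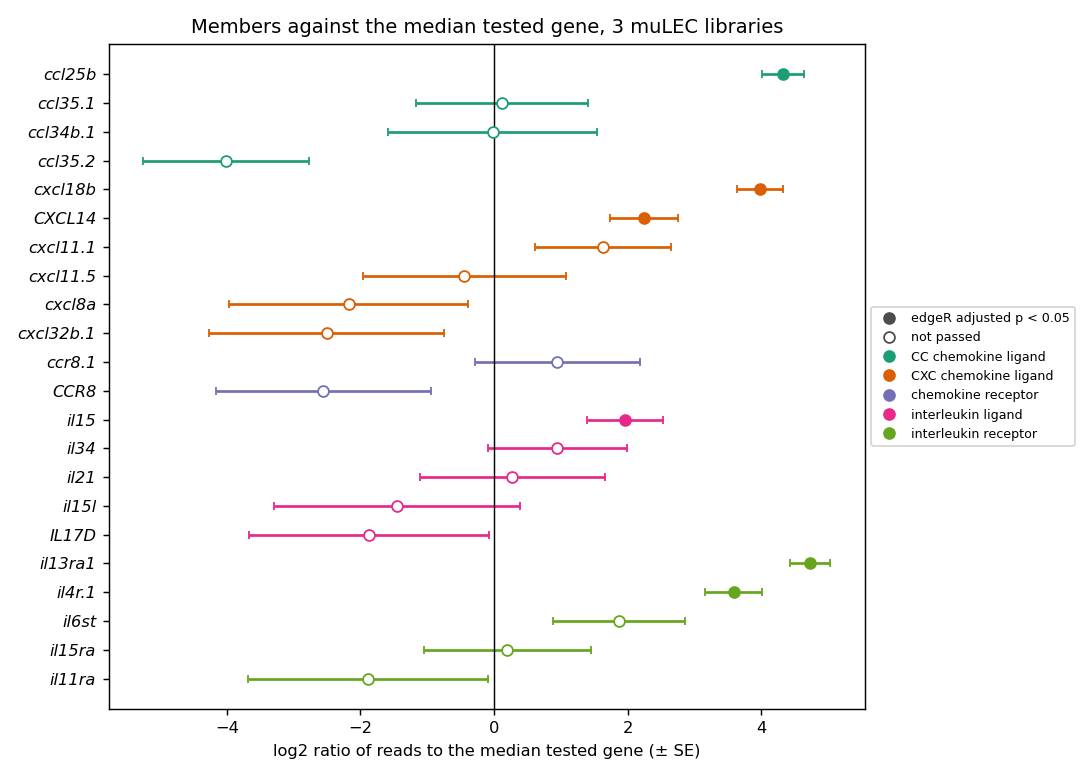
Log2 ratio of reads to the median tested gene for the same 22 genes, with the standard error of the fit over 3 muLEC libraries. The 6 filled symbols passed the edgeR test and all lie to the right of 0, and the error bars of most others are wider than 1 log2 unit.

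Of the 33 CC chemokine ligand genes, 4 were tested and ccl25b (ENSDARG00000070873) was the one above the median gene, beside 23.4% of all tested genes. Ccl25 is known in mammals as the ligand of Ccr9 that guides T cell precursors to the thymus and lymphocytes to the gut. It had 7338, 8195 and 10263 reads, or 194, 293 and 249 CPM, in replicates 1, 2 and 3. All 3 libraries were high and within a narrow range, with a mean of 246 CPM ± 49.4 (SD, n = 3), and reads lay 4.32 ± 0.32 log2 units (SE) over the median gene (edgeR adjusted p = 4.28e-10). It made up 79.4% of all CC ligand reads.

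The other CC ligands were low or came from single libraries. The gene ccl35.1 had 239, 596 and 486 reads, read in every library, at 13.1 CPM ± 7.57 and a log2 ratio of 0.11 ± 1.29 (adjusted p = 0.983, edgeR). Its namesake ccl35.2 had 6, 29 and 44 reads and a log2 ratio of -4.01 ± 1.24 (adjusted p = 0.152, edgeR). By limma-trend it was called below the median gene on log2(CPM + 1), log2(CPM + 0.1) and the authors' YuGene scores (adjusted p = 8.97e-12, 0.0158 and 0.000484). Without replicate 1 edgeR also called it below (adjusted p = 0.00147). These settings called 14.7%, 7.89%, 15.3% and 6.34% of all tested genes below it. ccl34b.1, which is used as a microglia marker in the zebrafish, had 2, 715 and 401 reads, so it was at the floor in replicate 1 and well above it in the other libraries, and without replicate 2 its mean of 11.78 CPM was 4.90 CPM. Its spread left it at a log2 ratio of -0.02 ± 1.56 (adjusted p = 0.998, edgeR). A similar split over libraries was seen in c1qc, a complement gene of macrophages, at 0, 620 and 511 reads, and in one MPEG1 copy (ENSDARG00000055290), a macrophage perforin gene picked after its values were seen, at 2, 1663 and 2028 reads. Other macrophage genes were split otherwise: SLC7A7 had 966, 1042 and 8 reads, SPI1 had 7, 1500 and 14, and the other MPEG1 copies had 1, 0 and 155 and 0, 40 and 5. Whether macrophage RNA accounts for the ccl34b.1 reads was not tested.

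Replicate 3 alone gave 10 reads or more for 7 CC ligands. The largest was ccl19a.1, a copy of the gene for Ccl19, which in mammals calls T cells and dendritic cells through Ccr7, with 3, 3 and 3023 reads. The paralogs ccl34b.4 and ccl34b.8 had 1, 0 and 680 reads and 0, 0 and 95 reads. Then came ccl33.3 with 185 reads, ccl38.6 with 103, ccl39.1 with 43 and ccl38a.5 with 14 in replicate 3, each with 0 in replicates 1 and 2.

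CXC chemokine ligands were led by cxcl18b and CXCL14. The gene cxcl18b (ENSDARG00000075045) encodes a chemokine of fish and amphibians that attracts neutrophils in the zebrafish. It had 10751, 3553 and 7351 reads, or 285, 127 and 179 CPM. Replicate 1 was the highest and replicate 2 the lowest, with a mean of 197 CPM ± 80.4 (SD, n = 3) and a log2 ratio of 3.98 ± 0.34 (adjusted p = 4.09e-09, edgeR).

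CXCL14 (ENSDARG00000056627) encodes a chemokine that mammals make constantly in epithelia and brain and whose receptor is debated. It had 1432, 1861 and 2882 reads, or 37.9, 66.5 and 70.1 CPM, read in all libraries, with replicate 1 the lowest. The mean was 58.2 CPM ± 17.6 and the log2 ratio 2.24 ± 0.51 (adjusted p = 0.000528, edgeR). This call was lost without replicate 3, where the ratio was 0.90 (adjusted p = 0.419), and among genes with 10 reads in all 3 libraries, where it was 1.03 (adjusted p = 0.0856); the median tested gene then had 946.5 and 839.5 reads in replicates 1 and 2 without replicate 3, and 1042, 917.5 and 1062 reads with the stricter filter, in place of 475, 328 and 523.

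The remaining CXC ligands varied strongly between libraries. The interferon-induced chemokine gene cxcl11.1, a ligand of Cxcr3, had 3, 549 and 3970 reads: at the floor in replicate 1 and highest in replicate 3. Its mean of 38.7 CPM was 9.85 CPM without replicate 3, and its log2 ratio of 1.63 ± 1.02 did not pass (adjusted p = 0.228, edgeR), though it did without replicate 1 (1.54, adjusted p = 0.0387). cxcl11.5 had 364, 3 and 745 reads, and here replicate 2 was at the floor; its mean of 9.29 CPM was 4.87 CPM without replicate 3. The neutrophil attractant gene cxcl8a had 80, 0 and 259 reads, and cxcl32b.1 had 0, 37 and 217. Without replicate 3 their means were 1.06 and 0.661 CPM, in place of 2.81 and 2.20 CPM. In replicate 3 alone there were 781 reads of cxcl20 (3 and 0 in the others), 197 of cxcl19 and 114 of cxcl11.4 (0 in the others).

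Few chemokine receptor genes were read. Of 22 receptor genes, 15 had 0 reads in all libraries, beside 42.5% of all gene IDs and 36.3% of those with a symbol. The threshold for testing was met by 2, beside 22.1% and 25.8%. Neither was above the median gene in the edgeR, DESeq2 or limma-trend fits (0 at an unadjusted p under 0.05 by edgeR). By edgeR 23.4% of all tested genes were above it. The gene named CCR8 was called below it by limma-trend on log2(CPM + 1) (difference -2.44, adjusted p = 0.00287) and on the authors' YuGene scores (adjusted p = 0.00472). These settings called 14.7% and 15.3% of all tested genes below it. On log2(CPM + 0.1) CCR8 was not called (difference -3.60, adjusted p = 0.133, limma-trend). Summed over the 22, there were 7, 1392 and 1443 reads, or 0.185, 49.7 and 35.1 CPM, so replicate 1 held almost none. ccr8.1 took most of them, with 2, 1272 and 993 reads and a log2 ratio of 0.95 ± 1.24 (adjusted p = 0.751, edgeR). CCR8 (ENSDARG00000086616) had 1, 116 and 81 reads. Both were at the floor in replicate 1 and read in replicates 2 and 3. Macrophage markers, listed above, were split over the libraries in several ways, and their part in these reads was not tested. Without replicate 2 the mean of ccr8.1 was 12.1 CPM in place of 23.2, and that of CCR8 0.998 CPM in place of 2.05. CXCR3 (ENSDARG00000007358), the receptor of Cxcl11, had 0, 0 and 319 reads, cxcr3.3, a copy of the same receptor, had 2, 4 and 20, and one ACKR4 copy (ENSDARG00000040133), an atypical receptor that in mammals takes up Ccl19, Ccl21 and Ccl25, had 0, 0 and 29. The gene ACKR2, which in mammals marks lymphatic endothelium and clears inflammatory CC chemokines, had 0 reads in every library. The same was true of CCR7, of both genes named CXCR1 in either case, of ccr2, ccr10 and CXCR5.

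**Figure D3:**
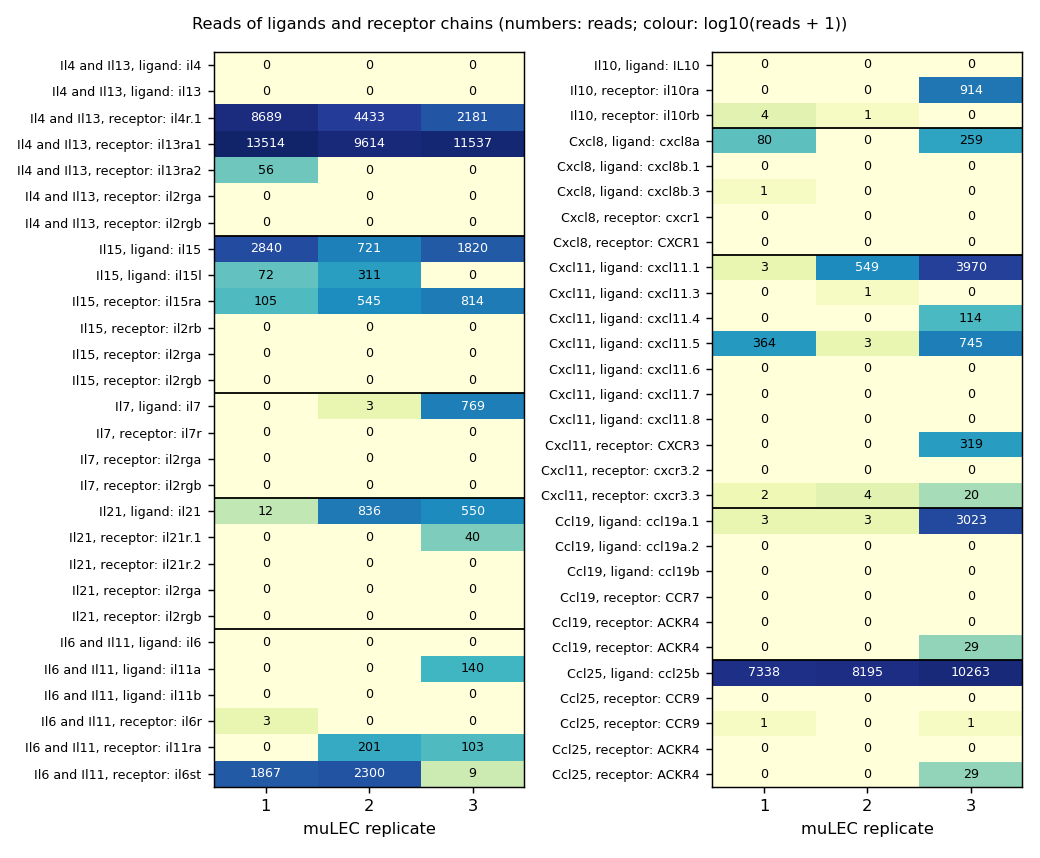
Reads in muLEC replicates 1, 2 and 3 for ligands and receptor chains grouped by the pairs known from mammals, printed in each cell and coloured by log10(reads + 1). The Il4 and Il13 group has reads in receptor chains and 0 in its ligands, while the Ccl25 group has high ligand counts beside receptors at 0 to 29 reads.

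Of the 27 interleukin receptor genes, 5 met the threshold for testing, beside 22.1% of all gene IDs and 25.8% of those with a symbol. Of these 5, 2 lay above the median gene, beside 23.4% of all tested genes. They were il13ra1 and il4r.1, whose products are known to work together. In mammals Il13ra1 and Il4r join into the type II receptor, which binds both Il4 and Il13 and is the form found on cells outside the blood lineage; it signals through Stat6. il13ra1 (ENSDARG00000080020) had 13514, 9614 and 11537 reads, or 358, 343 and 281 CPM. All libraries lay close together, at 327 CPM ± 41.1 (SD, n = 3) and a log2 ratio of 4.73 ± 0.30 (adjusted p = 5.42e-11, edgeR). Its coefficient of variation was 0.126, beside a median of 0.325 over the 350 tested genes with a mean level within a factor of 2 of it.

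il4r.1 (ENSDARG00000102583), a copy of the Il4 receptor alpha chain, had 8689, 4433 and 2181 reads, or 230, 158 and 53.0 CPM. It was read in all libraries but unevenly, with replicate 3 the lowest, at 147 CPM ± 89.0 and a log2 ratio of 3.58 ± 0.43 (adjusted p = 1.96e-07, edgeR). The decoy receptor gene il13ra2, classed in mammals as a trap for Il13, had 56, 0 and 0 reads. Neither ligand was read: il4 and il13 had 0 reads in every library, and the common gamma chain genes il2rga and il2rgb, used by the type I receptor of blood cells, also had 0. The signalling gene stat6 had 1368, 564 and 1147 reads, a level of 28.1 CPM ± 8.04, and its log2 ratio of 1.18 ± 0.78 missed the threshold (adjusted p = 0.3002, edgeR).

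The shared receptor chain gene il6st, which encodes gp130 and serves Il6, Il11 and related ligands, had 1867, 2300 and 9 reads. It was high in replicates 1 and 2 and nearly absent in replicate 3, with a mean of 43.9 CPM that was 24.8 CPM without replicate 2 and a log2 ratio of 1.87 ± 0.98 (adjusted p = 0.118, edgeR). The ligand-specific chain gene il11ra had 0, 201 and 103 reads, with a mean of 3.23 CPM that was 1.25 CPM without replicate 2, and il6r had 3, 0 and 0. The ligand genes il6 and il11b had 0 reads throughout, and il11a had 0, 0 and 140.

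Other receptor chains rested on 1 library each. il10ra, the ligand-binding chain for Il10, had 0, 0 and 914 reads, its partner il10rb 4, 1 and 0, and IL10 itself 0 in all. il12rb2l had 3, 8 and 468 reads, il17rc, a subunit of Il17 receptors, 1, 0 and 287, and il21r.1 0, 0 and 40. IL17RD, a receptor-like gene that in vertebrates also restrains Fgf signalling, went the other way with 441, 1 and 0.

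Among the 5 interleukin ligands tested il15 was the one above the median gene, beside 23.4% of all tested genes. Il15 supports natural killer and memory T cells in mammals, and it is handed to neighbouring cells by its own receptor alpha chain, Il15ra. il15 (ENSDARG00000052361) had 2840, 721 and 1820 reads, or 75.2, 25.8 and 44.3 CPM. Replicate 1 was the highest and replicate 2 the lowest, at 48.4 CPM ± 25.0 (SD, n = 3) and a log2 ratio of 1.96 ± 0.56 (adjusted p = 0.00449, edgeR). It was no longer called without replicate 1 (ratio 0.72, adjusted p = 0.621), without replicate 3 (0.95, adjusted p = 0.440) and among genes with 10 reads in all 3 libraries (0.80, adjusted p = 0.264).

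il15ra had 105, 545 and 814 reads, present in every library and lowest in replicate 1, at 14.0 CPM ± 9.73 and a log2 ratio of 0.20 ± 1.25 (adjusted p = 0.966, edgeR). The chains that in mammals transmit the Il15 signal, il2rb and the common gamma chain copies il2rga and il2rgb, had 0 reads in all libraries. The related gene il15l had 72, 311 and 0 reads, with a mean of 4.34 CPM that was 0.953 CPM without replicate 2.

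il34 encodes a ligand of the Csf1 receptor, on which microglia depend. It had 1771, 10 and 1059 reads, low in replicate 2 alone, with a mean of 24.3 CPM that was 13.05 CPM without replicate 1 and a log2 ratio of 0.95 ± 1.04 (adjusted p = 0.666, edgeR). Its receptor genes were low, with 0, 3 and 102 reads of csf1ra and 0, 0 and 2 of csf1rb. The T cell cytokine gene il21 had 12, 836 and 550 reads, with a mean of 14.5 CPM that was 6.84 CPM without replicate 2, and IL17D had 92, 205 and 0, with means of 3.25 and 1.22 CPM on the same terms. In replicate 3 alone stood il7, a growth factor for lymphocytes that lymphatic endothelium makes in mammals, with 0, 3 and 769 reads, il22 with 0, 1 and 153, and il11a. The inflammatory interleukin gene il1b had 0 reads in all libraries.

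Of the 4 genes outside these roles, il4i1, an amino acid oxidase gene, had 0, 0 and 1454 reads, and one copy of IL1RAPL1 (ENSDARG00000062045), whose product is a synaptic adhesion protein in mammals, had 0, 0 and 430. The other IL1RAPL1 copy had 0, 0 and 1 and IL1RAPL2 had 0 in every library.

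Replicate 3 held the most of these genes at 10 reads, and also the most of all gene IDs. At least 10 reads were reached by 17, 20 and 41 of the 128 genes in replicates 1, 2 and 3. Of all 32105 gene IDs, 7472, 6117 and 9739 reached 10 reads in replicates 1, 2 and 3. A single library gave 10 reads for 24 genes, or 18.8%, against 15.6% of all gene IDs, and that library was replicate 3 for 22 of the 24. Among all 4998 gene IDs with 10 reads in a single library it was replicate 3 for 59.3%. The other single-library genes, IL17RD and il13ra2, were read in replicate 1. Replicate 3 also held the most macrophage and lymphocyte markers with 10 reads, though the summed lymphocyte level was highest in replicate 2. The same held for markers of neurons (8, 7 and 10), of fibroblasts and meninges (8, 5 and 10), of keratinocytes (5, 3 and 6) and of radial glia (2, 1 and 3), and for all gene IDs. Oligodendrocyte markers were most in replicate 1 (6, 5 and 5). Replicate 3 tied with another library for general endothelial (8, 8 and 8), lymphatic endothelial (11, 12 and 12), neutrophil (3, 2 and 3), pericyte and smooth muscle (2, 2 and 2), erythrocyte (1, 0 and 1) and thrombocyte markers (0 in each). The part of any such cells in the 22 genes was not tested.

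**Figure D4:**
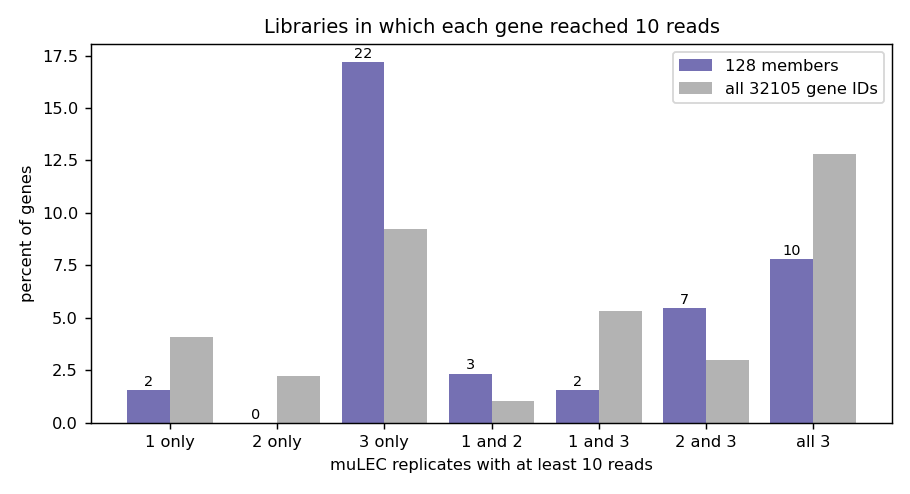
Percent of the 128 chemokine and interleukin genes and of all 32105 gene IDs with at least 10 reads in the named muLEC replicates, with the number of the 128 genes over each bar. The tallest bar of the 128 is for replicate 3 alone, with 22 genes, and that of all gene IDs is for all 3 replicates.

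Several signalling genes downstream of these receptors were read in all libraries. Of 23 Jak, Stat and Socs pathway genes, 10 met the threshold for testing, and 2 of these lay above the median gene and 0 below it, beside 23.4% and 1.24% of all tested genes. One of them, SOCS1, an inhibitor of Jak kinases, had 1692, 1136 and 1459 reads, at 40.3 CPM ± 4.67 and a ratio of 1.71 ± 0.62. JAK1, at 34.9 CPM ± 17.2, did not pass. The kinase gene jak3, which in mammals works with the common gamma chain, had 0 reads in all libraries, and TYK2 had 0, 0 and 5.

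Of 22 genes that relay interleukin 1 and Toll signals to NF-kappaB, 12 met the threshold for testing. Of these 5 lay above the median gene and 0 below it, beside 23.4% and 1.24% of all tested genes. The 5 included the NF-kappaB inhibitor genes nfkbiab, at 792 CPM ± 181, and nfkbiaa, at 51.0 CPM ± 7.68 (SD, n = 3). The others were the adaptor gene MYD88, at 135 CPM ± 61.8, the NF-kappaB subunit gene relb, at 76.8 CPM ± 19.6, and IRAK3, a brake on this pathway, at 48.3 CPM ± 7.58. TRAF6 had 1, 0 and 0 reads and RELA 2, 0 and 0.

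Of 16 genes that act under chemokine receptors, 10 met the threshold for testing. Of these 5 lay above the median gene and 0 below it, beside 23.4% and 1.24% of all tested genes. Among the 5 were the G protein subunit genes gnb1b, at 170 CPM ± 53.1, gnai1, at 108 CPM ± 46.7, and gng12a, at 49.4 CPM ± 19.8. PIK3CG, a lipid kinase gene, passed narrowly at 37.7 CPM ± 9.97 (adjusted p = 0.0474, edgeR). The last was one ARRB2 copy (ENSDARG00000011545), which encodes a beta-arrestin, at 82.0 CPM ± 75.4, with 223, 2336 and 6446 reads. The other ARRB2 copy (ENSDARG00000039215) had 757, 1702 and 361 reads and did not pass (adjusted p = 0.307, edgeR). The genes of this list serve many receptors. Of 27 genes for other cytokines, their receptors and related factors outside the naming rule, 8 met the threshold for testing. Of these 1 lay above the median gene, beside 23.4% of all tested genes. It was no cytokine or receptor gene but CEBPB, a transcription factor gene induced by Il6 in mammals, at 76.4 CPM ± 31.2. Next by reads were the receptor gene lifrb with 1665, 15 and 2250, the growth factor gene tgfb1a with 805, 722 and 447, and the receptor gene cntfr with 204, 1273 and 162. The tumour necrosis factor gene tnfa had 0 reads in all libraries and tnfb had 0, 912 and 177. Together 13 of the 40 tested partners stood above the median gene, beside 23.4% of all tested genes, and 0 below it by edgeR (0 at an unadjusted p under 0.05). Without replicate 1, 8 of 34 stood above it, beside 23.3% of all tested genes. It was 11 of 37 without replicate 2, beside 27.2%, and 6 of 31 without replicate 3, beside 21.1%.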

How the data were processed

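The authors deposited counts, whole-number reads per Ensembl gene ID and library, and a YuGene score per gene and library, per the file headers. The submitters' processing notes list bcl2fastq, R 3.2.2 and the build GRCz10, while the aligner, the counter and its strand setting were not given in the sources used here. Deposited scores, recomputed from log2(CPM + 1) as 1 minus its running share over ranked genes, differed by at most 1.58e-13. Columns, named pvLEC, were matched to samples by replicate number. Symbols came from a table of gene IDs, which named 26269 of them. Gene lengths and sequences were not used here, and positions entered only as the order of genes in another assembly.

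Levels are CPM scaled with edgeR 4.0.16 TMM factors of 1.05, 0.796 and 1.20. All genes that met 10 reads in 2 or more libraries entered the same fit. The edgeR quasi-likelihood test took the median count of the tested genes in a library (475, 328 and 523 reads), logged, as that library's offset and asked whether the intercept differed from 0. The test statistic was computed from the deviances and variances that glmQLFit returns, and tested on simulated data. Standard errors came from the fitted information. Alternatives used DESeq2 1.42.0, limma 3.58.1, other filters, scalings, reference levels and pseudocounts, and each library left out. Each replicate is its own pool of 6 brains. Reads of amplified RNA do not each stand for a molecule, so floors cover counting error only.

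The genes, the 4 pathway lists and the 13 cell type lists were chosen with earlier results of these data known; 229 of 270 listed symbols were matched by symbol, or by its capital stem where the table held no more IDs than copies listed. Named were all genes with 10 reads in a library, the up to 4 highest of each pathway list and up to 3 of the highest markers of the cell type lists that bear on the results, except for genes that are not reported here; genes named beyond that are examples at 0 reads and receptor partners picked after their values were seen.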

Additional observations from a re-analysis of the deposited data

How the results depend on the processing

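The number of chemokine and interleukin genes above the median gene was 6 of 22, beside 23.4% of all tested genes. With no filter it was 8 of 62, beside 9.28%. It was 4 of 10, beside 25.3%, with 10 reads in all 3 libraries. Without replicates 1, 2 and 3 in turn it was 6 of 17, 6 of 12 and 4 of 13, beside 23.3%, 27.2% and 21.1%. Each other alternative gave 6 of 21 or 22, beside 21.4% to 23.5%. The genes il13ra1, il4r.1, ccl25b and cxcl18b were called under all alternatives. Their lowest log2 ratios over the count-based fits were 3.52, 2.13, 3.09 and 2.81. CXCL14 and il15 lost their calls as given above. With no filter, against the same median levels, cxcl11.1 and il6st were also called. Genes below the median gene numbered 0, but 16 with no filter (62 tested, beside 31.5% of all tested genes). Of the 22 tested, limma-trend called 4 on log2(CPM + 1) (beside 14.7%), 1 on log2(CPM + 0.1) (7.89%) and 6 on YuGene scores (15.3%). It was 1 of 17 without replicate 1 (6.34%), 0 of 12 without replicate 2 (8.25%) and 0 of 13 without replicate 3 (4.84%). Genes reaching the filter numbered 22, but 62 with no filter and 10 when all 3 libraries were required, and 12 to 17 with 1 library left out, where both others had to reach 10 reads. Pathway partners above numbered 13 of 40, beside 23.4% of all tested genes. Without replicates 1, 2 and 3 in turn they numbered 8 of 34, 11 of 37 and 6 of 31, beside 23.3%, 27.2% and 21.1%. With 10 reads in all 3 libraries they numbered 7 of 31, beside 25.3% of all tested genes. Partners below numbered 0, but 14 of 73 with no filter (beside 31.5% of all tested genes) and 4 of 31 with 10 reads in all 3 libraries (5.33%). They numbered 3 of 40 with limma-trend on log2(CPM + 1) (14.7%) and 5 of 40 on YuGene scores (15.3%). It was 3 of 34 without replicate 1 (6.34%), 2 of 37 without replicate 2 (8.25%) and 2 of 31 without replicate 3 (4.84%). The cause of these shifts was not tested, except that a filter or a left-out library changes which genes are tested and so the median. With malat1 and mitochondrial genes left out of plain library totals, il13ra1, ccl25b, cxcl18b, CXCL14 and il15 averaged 494.3, 367.9, 304.9, 87.55 and 75.52 CPM. Their means under TMM scaling were 327.2, 245.5, 196.8, 58.15 and 48.4 CPM, so each rose by more than its SD. The mean of il4r.1 was 221.1 in place of 147.1 CPM, a rise within its larger SD of 89.0 CPM. Smaller totals raise every remaining gene, so passing the SD or not reflects the spread of a gene between libraries. It does not mean that il4r.1 was less affected. Reads per kilobase were not run, since transcript lengths were not used here. No paired analysis was possible because the series has a single group. A count of 0 allows up to 3 reads per library by counting error.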

Other observations

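By order along the chromosomes in the RefSeq annotation of another assembly, GRCz12tu, 106 of the 128 genes were placed by symbol and 21 pairs of them were direct neighbours among protein-coding genes. In 7 of the 21 pairs neither gene reached 10 reads in any library, in 12 pairs 1 of the 2 did and in 2 pairs both did. Of all 128 genes 64.1% reached 10 reads in no library, beside 62.3% of all gene IDs. Some genes stand in more than 1 pair, and other neighbouring genes were not counted. The pair counts therefore do not show whether neighbours are read apart. The examples that follow were picked after their values were seen. In the run of cxcl11.4, cxcl11.3, cxcl11.1 and cxcl20, reads in replicates 1, 2 and 3 were 0, 0 and 114 for the first, 0, 1 and 0 for the second, 3, 549 and 3970 for the third and 3, 0 and 781 for the last. ccl19a.1 had 3, 3 and 3023 reads, and its neighbour ccl19a.2 had 0 in all libraries. il22 had 0, 1 and 153 reads beside il26 with 0, 1 and 0.

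Of the 6 genes above the median gene, spread between libraries differed. The coefficient of variation was 0.605 for il4r.1, with 78.5% of the 715 tested genes within a factor of 2 of its level lower, and 0.201 for ccl25b, with 25.0% of 448 lower. It was 0.303 for CXCL14, 0.408 for cxcl18b and 0.516 for il15.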
